A study of Mus musculus with 18 samples.

Results

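The regions described here are 2346 distal binding sites of KAP1 that are shared with SETDB1 in mouse hepatoma cells. They were chosen by list and position, on mouse build mm9. The rule took all peaks of the deposited KAP1 and SETDB1 list on the 19 autosomes. Their edges had to lie more than 1 kb from every annotated transcript start. The KAP1 list holds 13366 peaks and the shared list 2957, and each of the 2957 is also an entry of the KAP1 list with the same position and score. Of the shared peaks, 2843 lay on autosomes, and 497 of these were within 1 kb of a start and were set aside. The members are therefore 2346 of the 8891 distal and 13143 autosomal KAP1 peaks. No member overlapped another. On either side of the 1 kb limit, the nearest members were in an intron of Ankrd6 at chr4:32980695-32981896 (1034 bp from a start, KAP1 score 3100) and in an intron of Myb at chr10:20878669-20879747 (1043 bp, score 1109). Myb encodes a transcription factor of blood progenitors. The nearest shared peaks that missed it were beside Gm11843 at chr4:12060121-12061170 (999 bp, score 218) and beside Esrp1, a splicing regulator gene, at chr4:11314918-11316069 (988 bp, score 685).

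The study mapped KAP1 and SETDB1 by chromatin immunoprecipitation and sequencing in Hepa 1.6, a wild-type hepatoma line from the C57L strain. It mapped the histone marks H3K9me3 and H3K27ac in mouse embryonic fibroblasts (MEF). Their strain is C57BL/6 in the sample labels and C57BL/6J in the paper's methods. The MEF were either wild type (WT), with Kap1 flanked by loxP sites but not excised, or Kap1 KO. The KO MEF used for RNA sequencing were, per the methods, a clone cultured long term beside its WT counterpart. Whether the histone marks were mapped in that clone is not stated. Each antibody and condition is 1 library, and the list that defines the members rests on a KAP1 and a SETDB1 library, so there is no spread between replicates and no test between genotypes, and read depths are not given. In the lists used here, binding and marks come from different cell types: MEF values say what lies at the members' positions in fibroblasts. The score is the enrichment score of the peak caller, from 80 up in the KAP1 list and from about 50 in the MEF lists. A mark is counted at a member when a peak of that list shares at least 1 bp with it.

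The labelled cell type was checked with H3K27ac, which marks active promoters. In WT MEF all 12 fibroblast genes, among them Col1a1, Vim and Twist1, had an H3K27ac peak within 1 kb of a start, and so had all 12 in Kap1 KO MEF. None of 5 embryonic stem cell genes had a peak in either. Of 3 blood genes only Cd68, a macrophage gene, had a peak, with score 259 in WT and 118 in KO. The start of Trim28, the gene of KAP1, had H3K27ac with score 3100 in both genotypes, which does not test the deletion.

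KAP1 (TRIM28) is a scaffold protein without sequence-specific DNA binding of its own. It is brought to its sites mainly by KRAB zinc finger proteins (KZFPs), a large and fast-evolving family of DNA-binding repressors, and it recruits the methyltransferase SETDB1, which writes H3K9me3. The pathway is known for silencing endogenous retroviruses, for protecting imprinted methylation together with ZFP57, and for marking the zinc finger exons of the KZFP genes themselves.

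Members made up 26.4% of distal KAP1 peaks (95% interval 25.5 to 27.3; all intervals of shares are exact Clopper-Pearson and cover counting error only), while 11.7% (10.7 to 12.7) of KAP1 peaks within 1 kb of a start were in the shared list. Along the KAP1 score the members' share rose slowly: it was 20.4% of distal peaks in the lowest quartile of all KAP1 scores, then 22.1%, 26.1% and 37.7%. Near starts, sharing was more frequent at high scores, with 2.36%, 2.71%, 3.47% and 36.2% in the same quartiles. At scores of 1000 or more, 226 of 382 distal peaks were members (59.2%, 54.0 to 64.1) and 231 of 301 peaks near starts were shared (76.7%, 71.6 to 81.4).

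Members had a median score of 172 (95% interval 167 to 179), with quartiles at 113 and 372 and a range of 80 to 3168. Shared peaks within 1 kb of a start had a median of 891, and distal KAP1 peaks outside the shared list 138. At the lower end 398 members had a score of at most 100, and at the upper end 45 members had exactly 3100, so the order among the strongest is not resolved. Members were a median of 758 bp wide (quartiles 644 and 974). Their median distance to a start was 26.1 kb (quartiles 10.1 and 70.8), against 18.3 kb for other distal KAP1 peaks.

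By the middle of the peak, 1685 members lay between genes (71.8%, 70.0 to 73.6), 546 in introns (23.3%) and 115 in exons (4.90%, 4.06 to 5.85). Other distal KAP1 peaks lay at 67.5%, 28.6% and 3.85%. The 115 exon members were stronger than the rest: their median score was 862, against 172 in introns and 166 between genes. Of the 226 members with a score of 1000 or more, 47 were in exons (20.8%, 15.7 to 26.7). The middle of 88 exon members was coding sequence.

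The member with the highest score, 3168, covered a coding exon of Cdh15 at chr8:125388691-125389988. Cdh15 encodes M-cadherin, a muscle adhesion protein, and is counted among imprinted genes; it had H3K9me3 with score 758 in WT MEF and no other MEF peak. Exon members tied next, at score 3100, included those in Scrt1 (chr15:76348054-76350313) and in Bhlhe41 (chr6:145810658-145812722). Scrt1 encodes a neuronal zinc finger repressor, and Bhlhe41 a repressor of the circadian clock. They differed in MEF: Scrt1 had H3K9me3 with score 298 in WT only, and Bhlhe41 had H3K27ac with score 3100 in both genotypes. In introns, members tied at the score 3100 included those in Trappc9, in Arhgap10 (chr8:79972244-79973644) and in Habp4 (chr13:64270482-64271840). The Arhgap10 member had the highest WT H3K9me3 score of any member, 2516, and the Habp4 member had 579; neither had a peak of any kind in KO. Between genes, members tied at 3100 included those near Fcgr3, near a U1 small nuclear RNA gene and 86.0 kb from Mir466f-4 (chr13:71157228-71159964). The last had WT H3K9me3 with score 758.

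A larger share of listed imprinted genes than of all protein-coding genes held a member, with gene lengths not matched and no test made. Of 47 listed imprinted genes on autosomes 5 had a member in the gene body (10.6%, 3.55 to 23.1), beside 539 of all 21281 protein-coding genes (2.53%, 2.33 to 2.75). They were Cdh15, Zfp787, Trappc9, Gnas and Kcnq1. The Trappc9 member at chr15:72639544-72641156 (score 3100) is in an intron of a gene that surrounds the imprinted Peg13 noncoding RNA, a name absent from the annotation used; it had H3K9me3 in WT with score 190 and H3K27ac in both genotypes with scores 131 in WT and 81.1 in KO. The Gnas member at chr2:174124518-174125791 (score 1408) is in a coding exon of a locus with several imprinted protein products, and had WT H3K9me3 with score 100. The Kcnq1 member, in an intron of a potassium channel gene at chr7:150422002-150424401, was weak by comparison (score 277) and had no MEF peak. A region chosen after its values were seen, 29.6 kb from Rasgrf1 at chr9:89774088-89775026, had score 3100 and WT H3K9me3 with score 1123; Rasgrf1 is imprinted and encodes an exchange factor for Ras. Of the 5 members with WT H3K9me3 among these (Cdh15, Zfp787, Trappc9, Gnas and the one near Rasgrf1), none had it in KO, which was also so at 470 of all 485 members with the WT mark. ZFP57, the KZFP of imprinted regions, binds the 6 letters TGCCGC when methylated, so a stretch is shown of each but Zfp787, from the + strand of mm9, with every TGCCGC or its reverse complement GCGGCA in capitals.
Cdh15, chr8:125388973-125389132: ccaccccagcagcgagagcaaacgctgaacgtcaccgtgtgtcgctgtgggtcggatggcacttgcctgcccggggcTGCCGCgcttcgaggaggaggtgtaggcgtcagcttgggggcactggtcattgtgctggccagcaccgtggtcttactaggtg
Trappc9, chr15:72640350-72640509: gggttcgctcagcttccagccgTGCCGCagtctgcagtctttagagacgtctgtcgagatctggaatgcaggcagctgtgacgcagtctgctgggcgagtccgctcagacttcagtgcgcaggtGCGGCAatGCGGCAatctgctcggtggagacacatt
Gnas, chr2:174124830-174124989: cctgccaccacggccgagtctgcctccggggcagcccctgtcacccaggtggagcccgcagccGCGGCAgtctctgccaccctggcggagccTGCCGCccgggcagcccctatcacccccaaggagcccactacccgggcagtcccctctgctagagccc
near Rasgrf1, chr9:89774588-89774747: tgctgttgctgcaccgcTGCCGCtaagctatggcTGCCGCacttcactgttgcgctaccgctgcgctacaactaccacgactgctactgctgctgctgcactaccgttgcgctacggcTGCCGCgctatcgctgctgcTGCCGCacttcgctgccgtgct

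Across their whole length these members held 2 of the hexamers in Cdh15, 3 in Zfp787, 5 in Trappc9, 6 in Gnas and 6 near Rasgrf1, while the Kcnq1 member held 0. The hexamer was common among the members at large: 74.3% (72.4 to 76.0) had TGCCGC on either strand, beside 43.7% of all KAP1 peaks and 29.6% of other distal KAP1 peaks. In the middle 300 bp it was found in 56.1% of members and 30.4% of all KAP1 peaks, and in 1.86% of 7978600 windows of 300 bp that tile the autosomes. Of distal KAP1 peaks with the hexamer 47.4% were members, and of those without it 11.6%. The Arhgap10 member held 19 copies and the one 86.0 kb from Mir466f-4 held 11.

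Of 422 genes with a zinc finger gene name 30 held a member (7.11%, 4.85 to 9.99), with 33 members between them, 26 of them in exons. The exon members had a median score of 1050, against 768 for the 89 other exon members. WT H3K9me3 covered 16 of the 26 (61.5%, 40.6 to 79.8) and KO H3K9me3 none. Among the 89 others WT H3K9me3 was at 31 (34.8%, 25 to 45.7). The strongest of the 26, all with score 3100 and in coding exons, were in Zfp629, Zfp282, Zfp777, Zfp787, Zfp30, Zfp697 and Zfp771. Their MEF marks spanned a wide range: WT H3K9me3 had score 1909 at Zfp777 (chr6:47974212-47975617), 1013 at Zfp697 (chr3:98231064-98232962), 876 at Zfp282 (chr6:47854361-47855827), 227 at Zfp787 (chr7:6083622-6085002) and 79.9 at Zfp30 (chr7:30577383-30578673). At Zfp629 (chr7:134754328-134756027) no mark was listed, and at Zfp771 (chr7:134396940-134398602) only WT H3K27ac, with score 511.

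The study catalogued KZFP genes and related genetic units (KZFP/rGUs, copies that need not be genes). The table available here lists 560 of them, a part of the full catalogue, so overlaps with the rest were not counted. Of the 554 listed elements on autosomes 51 overlapped a member (9.21%, 6.93 to 11.9). They were met by 55 members (2.34%, 1.77 to 3.04), against 0.856% of other distal KAP1 peaks and 1.01% of all KAP1 peaks. These 55 had a median score of 408, and 28 were in exons. WT H3K9me3 was at 31 (56.4%, 42.3 to 69.7), KO H3K9me3 at 1 and H3K27ac at 0 in either genotype (upper limit 6.49%). Over all members the shares were 20.7% and 1.15% for H3K9me3 in WT and KO, and 5.63% and 8.23% for H3K27ac, so the limit includes the WT share. All 55 contained the DNA pattern of the conserved linker between neighbouring C2H2 zinc fingers. The paper defines these units by a repeat whose consensus spans zinc fingers with this linker, so the match follows largely from the definition. The pattern was in 62 members (2.64%), these 55 among them, and in 1.17% of all KAP1 peaks. Outside KZFP/rGUs 0.306% of members had it. The 3 strongest of the 55 were in Zfp629, in Zfp30 and in an intron of Gm12586 (chr11:121719372-121721735, score 2131, WT H3K9me3 score 878). A stretch from a coding exon of Zfp629 is shown to make the repeated linker visible, with each match in capitals. It is the + strand of mm9, and the linkers read on the other strand.
Zfp629, chr7:134755266-134755485: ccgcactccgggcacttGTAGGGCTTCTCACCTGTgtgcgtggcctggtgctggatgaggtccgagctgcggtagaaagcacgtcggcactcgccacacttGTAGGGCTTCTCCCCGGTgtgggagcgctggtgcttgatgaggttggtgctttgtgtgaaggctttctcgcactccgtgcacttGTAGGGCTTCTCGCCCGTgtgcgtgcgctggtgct

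Along chromosomes, 1105 of 2346 members had another member within 100 kb (47.1%, 45.1 to 49.1). Among the 6545 other distal KAP1 peaks, a larger and so denser set, 62.8% (61.6 to 63.9) had another of their own kind that close. Within 10 kb the order was reversed, with 32.9% (31 to 34.8) of members and 21.6% (20.6 to 22.6) of the others. Chaining members within 100 kb gave 1241 single members, 354 pairs and 13 groups of 5 or more, beside 180 such groups of the other peaks. The distal KAP1 peak that followed a member on the chromosome was itself a member in 893 of 2340 cases (38.2%, 36.2 to 40.2), and in 22.2% (21.2 to 23.2) of cases after a distal KAP1 peak outside the shared list. The difference was concentrated at short range: within 10 kb the shares were 63.4% (59.5 to 67.3) and 21.9% (19.4 to 24.6), and farther apart 29.3% (27.2 to 31.5) and 22.2% (21.1 to 23.3).

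One of the 2 largest groups, 11 members over 162 kb at chr1:172871749-173033767, spans the genes of the IgG receptors Fcgr2b, Fcgr4 and Fcgr3. It had a median score of 1022 and 24 distal KAP1 peaks in all. In MEF it fell into separate stretches. A run of 6 neighbouring members from chr1:173000419-173001763 to chr1:173009992-173012930 had WT H3K9me3 with scores of 97.2 to 522 and no KO H3K9me3. The members at chr1:172973634-172974369, chr1:172974375-172975658 and chr1:173031530-173033767 had no H3K9me3 and had H3K27ac with score 3100 in both genotypes. The remaining pair had no MEF peak. Of the 11 members 6 held GTTCGANTC, letters of the B box of transfer RNA genes.

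The other group of 11, at chr13:66058866-66630360, and the next, 8 members at chr13:65619657-65906895, lie in KZFP/rGU clusters. Members made up 11 of 14 and 8 of 10 distal KAP1 peaks there. Median scores were 472 and 509, and 7 and 5 members overlapped a KZFP/rGU. These 7 and 5 shared a 30-base sequence of zinc finger coding type, shown with others further down. WT H3K9me3 was at only 1 member in each group, with scores 53.7 and 81.2, and no other MEF mark was listed. Of the members in these groups, at most 28.5% of 30-base words were found once in the genome.

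Among single genes, Fgfr2 held the most members, 5 with scores of 85.0 to 1686 and no MEF mark, but the annotation draws this growth factor receptor gene over 3009 kb, with other genes inside it. Fhit, a gene at a known fragile site, held 4 weak ones (95 to 164), likewise without MEF marks. Of the genes with 3 members, Gabrg3, 2010111I01Rik, Iars2, Igsf8, Lrp1b and Plxdc2 had no MEF mark at any, while Gm16889 had WT H3K9me3 at 2 and Gpc6 at 1. The 3 members in Neat1, the long noncoding RNA of paraspeckles, were in its exons and had H3K27ac in both genotypes, with KAP1 scores up to 1273. The 3 members in the annotated body of Gm13242 were over KZFP/rGUs, 1 of them in an exon of Gm13225, which is nested in it, and the others in exons of Gm13242. All had WT H3K9me3, with scores of 60.3, 226 and 226, and 1 kept a KO peak of 64.

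By chromosome, members numbered from 65 on chr19 to 202 on chr1, and from 5.94 per 10 Mb on chr12 to 13 on chr13. They were 18.8% of distal KAP1 peaks on chr15 and 41.3% on both chr14 and chr16. WT H3K9me3 was at 40.4% of members on chr8 (30.7 to 50.7) and 38.0% on chr10, and at 7.14% on chr18 (2.92 to 14.2). The leading shared sequences described further down were in 57 of 99 members on chr8 and 52 of 98 on chr18.

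Other gene classes are set beside the 2.53% of all protein-coding genes that held a member. Gene lengths differ between classes and were not matched. No member lay in 39 hepatocyte or 39 Hox genes, with upper limits of 9.03% that include the share of all genes. Nor did any lie in 1106 olfactory or 326 vomeronasal receptor genes, with upper limits of 0.333% and 1.13%, below that share. The distal rule leaves little room for a member in a short gene, so no difference is read from these classes. Of 31 genes of the KAP1 silencing machinery 1 held a member (3.23%): Trim24, a paralogue of KAP1, with a score of 502 and H3K27ac of 3100 in both genotypes at chr6:37822700-37823501. Of 98 cytochrome P450 genes 3 held members (3.06%). The strongest, with score 994 and WT H3K9me3 of 104, covered an exon of Cyp26b1, which encodes an enzyme that breaks down retinoic acid. Of 21 Ugt genes 7 overlapped (33.3%), all through 1 member shared by the nested Ugt1a transcripts, with score 1310 and WT H3K9me3 of 205 at chr1:90072192-90074022. Of 24 clustered protocadherin genes 2 held a member (8.33%, 1.03 to 27), of 67 histone genes 1 (1.49%; Hist1h2be, score 82.0, H3K27ac of 3100 in both genotypes), and of 48 Serpin A and B genes 1 (2.08%; Serpinb3b, score 786).

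Most members were not unique sequence. A word of 30 bases (30-mer) was counted over chromosomes 1 to 19, X and Y on both strands. The median share of a member's 30-mers found once in the genome was 8.27% (quartiles 0.133 and 50.9), beside 84.2% for other distal KAP1 peaks and 97.1% for shared peaks near starts. At least 1 30-mer was held in common with another member by 2015 of 2346 (85.9%, 84.4 to 87.3). In identical copies the position of a peak depends on how reads with several matches were placed, which the study's methods do not state; a listed peak may then belong to another copy.

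A set of 3 leading 30-mers, each the word found in the most members not yet holding an earlier one, was in 1296 members (55.2%, 53.2 to 57.3) and in 6.65% of other distal KAP1 peaks. Of distal KAP1 peaks with 1 of these, 74.9% (72.8 to 76.9) were members; of those without, 14.7% (13.9 to 15.5). The first was in 826 members (35.2%), the second in 337 (14.4%) and the 3rd in 694 (29.6%). They are printed with 20 bases on either side from the strongest member that holds each, on the + strand of mm9, because they carry most of the list; the 30-mer is in capitals.
First, chr17:60687545-60687614: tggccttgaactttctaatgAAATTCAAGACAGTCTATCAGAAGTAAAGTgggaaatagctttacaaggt
Second, chr2:137222638-137222707: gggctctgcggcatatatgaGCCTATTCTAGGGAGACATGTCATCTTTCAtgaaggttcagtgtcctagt
3rd, chr19:45277393-45277462: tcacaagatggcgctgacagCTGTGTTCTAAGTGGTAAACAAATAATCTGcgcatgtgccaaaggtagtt

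The members printed had score 990 for the first, 61.2 kb from a U1 gene, 1657 for the second, 108 kb from Gm14055, and 810 for the 3rd, 32.1 kb from Lbx1, a homeobox gene of muscle precursors and spinal neurons. The first and second had no MEF peak, and the 3rd had WT H3K9me3 with score 506. The first 30-mer has 2913 copies in the genome. Of 2687 on autosomes 946 were in members (35.2%) and 48.9% in any KAP1 peak, so most copies with KAP1 were also shared with SETDB1. Of the second, 14.7% of copies were in members, and of the 3rd 16.4%. Of the 826 members with the first, 624 also held TGGTGCCGA, the first 9 letters of the phenylalanine tRNA primer binding site of intracisternal A particle (IAP) retroelements. These letters were in 705 members (30.1%, 28.2 to 32.0), in 8.00% of all KAP1 peaks and in 4.06% of other distal ones. No annotation of repeats was used, so no member was assigned to a family.

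Members with a leading 30-mer were weaker and less often marked in MEF than the rest. Their median score was 140, against 358 for the 1050 others. With members split into 4 equal parts by score, from lowest to highest, the leading 30-mers were in 72.8%, 73.5%, 61.9% and 12.6%. Pairs of neighbouring members differed in this by distance. Of 60 pairs less than 1 kb apart 15 had a leading 30-mer at both, of 32 pairs 1 to 2 kb apart 11, of 71 pairs 2 to 3 kb apart 50, of 56 pairs 3 to 4 kb apart 39, of 34 pairs 4 to 5 kb apart 22, and of 122 pairs 5 to 6 kb apart 112. In the same order 6, 6, 47, 24, 17 and 80 pairs joined the first with the second. Only 22 pairs were 6 to 7 kb apart. Much of the hexamer was in them as well: TGCCGC was in 97.7% of members with a leading 30-mer and 45.3% (42.3 to 48.4) of the others, beside 25% of distal peaks with neither the 30-mers nor SETDB1. Of distal KAP1 peaks without a leading 30-mer, 23.8% (21.9 to 25.7) with the hexamer were members and 11.1% (10.3 to 12.0) without it.

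In WT MEF, H3K9me3 was at 485 members (20.7%, 19.1 to 22.4; 14.0% of all autosomal KAP1 peaks). In Kap1 KO MEF it was at 27 (1.15%, 0.760 to 1.67; 0.563% of all autosomal KAP1 peaks). Of the 485, 470 had no KO peak and 15 had one, and 12 members had a peak in KO only. The WT list is longer, with 14425 peaks against 4319. With the WT list cut to as many peaks as the KO list, by score, 9.63% of members were marked in WT, still above the KO share. Members took up a small part of each list: 543 of 14273 autosomal WT peaks (3.80%) and 32 of 4241 KO peaks (0.755%).

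The WT mark was most frequent at the middle of the members, as at other distal KAP1 peaks. H3K9me3 peaks covered 13.4% of member middles, 5.86% of positions 1 kb away, 2.77% at 2 kb, 1.73% at 5 kb and 0.916% at 10 kb. At other distal KAP1 peaks the shares were 12.9%, 4.41%, 2.05%, 1.14% and 0.955%. The mark also followed the KAP1 score. In the same 4 parts by score WT H3K9me3 was at 9.61%, 17.3%, 24.0% and 31.9%, while KO H3K9me3 was at 1.18%, 1.03%, 1.20% and 1.19%. At a given score the WT shares of members and of other distal peaks were near each other: in the quartiles of all KAP1 scores the mark was at 8.83%, 15.6%, 20.5% and 31% of members and at 12.2%, 14.8%, 17.9% and 26.9% of other distal KAP1 peaks. Over all other distal KAP1 peaks WT H3K9me3 was at 17.2% and KO H3K9me3 at 0.367%.

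The share of members with WT H3K9me3 differed by place and sequence, in groups not matched on KAP1 score. WT H3K9me3 was at 47 of 115 exon members (40.9%, 31.8 to 50.4), 20.7% of intron members and 19.3% of members between genes. It was at 14.4% (12.5 to 16.4) of members with a leading 30-mer and 28.5% (25.8 to 31.3) of the others. Median KAP1 scores differed in the same direction: 862 in exons, 172 in introns and 166 between genes. They were 140 with a leading 30-mer and 358 without. Of all members with a score of 1000 or more, 39.4% had the mark. A difference by place or sequence at equal score was not tested. Where at least 50% of 30-mers were unique, the mark was at 137 of 592 members (23.1%, 19.8 to 26.8) and at 13.1% (12.2 to 14.1) of such distal peaks outside the shared list. These sets were not matched on score either, with median KAP1 scores of 630 and 138. Among peaks with fewer unique 30-mers the order was reversed, with the mark at 19.8% (18 to 21.8) of 1754 members and 29.4% (27.2 to 31.6) of 1657 other distal peaks. Median scores there were 148 and 138.

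A less common 30-mer had the highest WT share of all 15 examined, and is shown for that reason. The 14th was in 15 members with a median score of 738, and 13 of them had WT H3K9me3 (86.7%, 59.5 to 98.3) and 0 KO H3K9me3; a further 87 distal KAP1 peaks held it outside the shared list. Its strongest member, with score 1727 and WT H3K9me3 of 99.7, is at chr6:124567838-124568781 in an intron of C1s, which encodes a complement protease. The 9th, of zinc finger coding type, was in 21 members, of which 7 had WT H3K9me3 (33.3%), and its strongest was the Gm12586 member. Both are from the + strand of mm9 with the 30-mer in capitals. These and all other regions named for a 30-mer, for GTTCGANTC or for H3K9me3 in KO only, and the zinc finger exons, were chosen after their values were seen.
14th, chr6:124567948-124568017: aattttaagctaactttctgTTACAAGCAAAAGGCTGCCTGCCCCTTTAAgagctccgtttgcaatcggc
9th, chr11:121720670-121720739: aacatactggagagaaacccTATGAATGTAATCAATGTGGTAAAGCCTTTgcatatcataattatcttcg

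The 15 members with H3K9me3 in both genotypes had a median score of 218 in the WT list and 105 in the KO list, which are not on a common scale. By KAP1 score the first were 51.2 kb from a U6 gene at chr17:4625937-4626834, in an exon of Tbr1 at chr2:61649381-61650521, and in an exon of Sp8 at chr12:120086879-120088566. Tbr1 encodes a T-box factor of cortical neurons and had scores of 218 in WT and 119 in KO. Sp8, a limb and forebrain factor gene, had 486 and 71.4. The region near U6 had 171 and 209. The 12 members marked in KO only had a median KO score of 71.4, with a range of 50.1 to 307 and 5 at 80 or more, beside 65.6 for the whole KO list. The strongest in KAP1 were in an intron of Gm6367 (chr5:95434005-95434865, KAP1 score 1137, KO score 57.0), near Sprr2a1 (chr3:92014787-92017163, KAP1 score 994, KO score 105) and in an intron of Ano2 (chr6:125826766-125827463, KAP1 score 906, KO score 72.1). Unique 30-mers made up 0%, 3.58% and 62.9% of these regions, in the same order. The Ano2 region and the one near U6 both held the 11th 30-mer, a simple repeat of TTCCA units. Of 18 members with it, 3 had H3K9me3 in KO (16.7%, 3.58 to 41.4), the highest KO share of the 15 examined.

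H3K27ac was rare at members in both genotypes. In WT MEF it was at 132 (5.63%, 4.73 to 6.64; 37.4% of all autosomal KAP1 peaks, which include promoters), and in Kap1 KO MEF at 193 (8.23%, 7.15 to 9.41; 40.2% of all autosomal KAP1 peaks). Other distal KAP1 peaks had it at 19.6% and 24.9%. The share of members was lower in each quartile: in the quartiles of all KAP1 scores WT H3K27ac was at 1.44%, 2.23%, 3.60% and 11.6% of members, and at 20.8%, 20.0%, 18.5% and 18.7% of other distal peaks. In WT the difference depended on how unique the sequence was. Among peaks with at least 50% unique 30-mers, 17.7% of members and 25.7% of other distal peaks had H3K27ac in WT, and 23.6% and 31.3% in KO. Among the rest, which hold most members, the shares were 1.54% and 1.57% in WT, so there was no shortfall in WT. In KO they were 3.02% and 5.97%, so in KO members were lower in both parts. The MEF lists were of like size, 36275 and 36436 peaks, and members met 0.350% of autosomal WT peaks and 0.529% of KO peaks.

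By genotype, 107 members had H3K27ac in both, 25 in WT only and 86 in KO only (3.67%, 2.94 to 4.51). Peaks in both had median scores of 2382 in WT and 2841 in KO. Those in KO only had a median of 283 and reached 3152, so they were not all near the lowest score. In other distal KAP1 peaks 1.96% were WT only and 7.27% KO only, so a larger KO share was not limited to members. Among members, KO-only H3K27ac was at 33 of 485 with WT H3K9me3 (6.80%, 4.73 to 9.42) and at 53 of 1861 without (2.85%, 2.14 to 3.71). These groups were not matched: median KAP1 scores were 266 and 161, and a leading 30-mer was in 38.4% and 59.6%. In other distal KAP1 peaks KO-only H3K27ac was at 93 of 1128 with WT H3K9me3, beside 476 of all 6545 (7.27%). TGANTCA, the letters bound by AP-1, was in 43.0% (32.4 to 54.2) of KO-only members, in 36.0% (18 to 57.5) of WT-only members and in 35.5% of those with H3K27ac in both. It was in 34.6% of other distal KAP1 peaks, in 11.9% of all members and in 24.1% of all KAP1 peaks. None of the 4 MEF lists had a peak at 1680 members (71.6%, 69.7 to 73.4), against 57.4% of other distal KAP1 peaks.

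The members with KO-only H3K27ac and the highest KAP1 scores had low H3K27ac scores. They were the same region 51.2 kb from U6 on chr17 (KO H3K27ac score 55.4), one near Olfr718-ps1 at chr5:143890168-143891783 (KAP1 score 2750, KO H3K27ac 66.9) and one near a Y_RNA gene at chr6:47727784-47728826 (KAP1 score 2675, KO H3K27ac 94.2). All 3 had WT H3K9me3, with scores of 171, 274 and 68.6. Of the 25 members with H3K27ac in WT only, 5 were in exons, 8 in introns and 12 between genes. The 3 with the highest KAP1 scores were in exons of Zfp771, of Sp6 (chr11:96882510-96884023) and of Tal1 (chr4:114735397-114736839). Sp6 is a factor gene of tooth and skin, and Tal1 encodes a master factor of blood cells. Their WT H3K27ac scores were 511, 181 and 591, and none of the 3 had H3K9me3. Of all 25, 2 had H3K9me3 in WT and 1 in KO.

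H3K27ac in KO without a WT peak was seen at runs of GCAG units, the 10th 30-mer. Of 19 members with it, 13 had H3K27ac in KO (68.4%, 43.4 to 87.4) and 2 in WT (10.5%, 1.30 to 33.1). Outside KAP1 peaks the same 30-mer lay at 690 places, of which 4.78% had H3K27ac in KO and 3.19% in WT. Counted by copy instead of by place, 26.6% of 3848 autosomal copies, inside and outside KAP1 peaks, had H3K27ac in KO. The 13 KO scores ran from 50.3 to 2694, with a median of 291, close to the 283 of all KO-only members. The highest were 2694 at 17.8 kb from Zfr (chr15:12027850-12029774), 2536 at 36.6 kb from Srd5a2 (chr17:74433838-74435941), 1777 in an intron of Rsbn1l (chr5:20431162-20431919) and 1571 at 209 kb from Cdh6 (chr15:13312845-13313767). Of these only the Srd5a2 region had WT H3K27ac, with score 208; Srd5a2 encodes a steroid reductase. The Zfr and Rsbn1l regions had WT H3K9me3, with scores 450 and 77.1, and no KO H3K9me3. The 6 members without KO H3K27ac included the strongest in KAP1, in an intron of Ppp1r12b (chr1:136695500-136696683, score 1846), a gene of a myosin phosphatase subunit. Its sequence is shown, since this simple repeat had the highest share with KO H3K27ac of the 15; it is the + strand of mm9 with the 30-mer in capitals.
Ppp1r12b intron, chr1:136695859-136695928: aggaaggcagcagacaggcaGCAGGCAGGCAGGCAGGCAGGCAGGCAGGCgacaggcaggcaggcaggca

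Some of the strong H3K27ac in both genotypes was at letters of transfer RNA genes. GTTCGANTC was in 51 members (2.17%, 1.62 to 2.85), near its 1.77% in all KAP1 peaks, and 47 of the 51 were between genes. It was in 13 of the 107 members with H3K27ac in both genotypes (12.1%, 6.63 to 19.9). Of the 51, 15 had H3K27ac in WT, 14 in KO, 20 H3K9me3 in WT (39.2%, 25.8 to 53.9) and 0 H3K9me3 in KO. Among those with H3K27ac in both genotypes, several tied at a KAP1 score of 3100. They included members 10.4 kb from a U1 gene at chr3:96303023-96305898 and 3.23 kb from Aurkb, the gene of a mitotic kinase, at chr11:68853423-68855920. A further one lay 3.81 kb from Gm11292 at chr13:22112500-22114762, with H3K27ac scores of 2201 in WT and 2648 in KO. The first pair had KAP1 scores of 3100, H3K27ac scores of 3100 in both genotypes and no H3K9me3. They are shown from the + strand of mm9, with matches to GTTCGANTC on either strand in capitals.
near U1, chr3:96304245-96304364: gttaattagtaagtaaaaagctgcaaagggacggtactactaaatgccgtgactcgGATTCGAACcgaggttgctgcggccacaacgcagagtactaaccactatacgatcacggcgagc
near Aurkb, chr11:68854481-68854600: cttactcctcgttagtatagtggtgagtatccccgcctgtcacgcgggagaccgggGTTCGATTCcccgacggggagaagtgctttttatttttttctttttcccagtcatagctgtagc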

How the data were processed

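Members and gene lists were chosen with earlier results of these data known. The authors aligned reads to mm9 with Bowtie2 2.2.1 and used MACS 1.4, with total input as control and a stated cutoff of 80, per the labels and methods; the deposited MEF lists start at about 50. The deposited value of each peak is its score, per peak and library, not comparable in size between libraries. Depths are not given, and the methods give 1 bp of overlap for intersects, under over-representation tests, without naming the list shared with SETDB1. The table of KZFP/rGUs used lists 560 elements, not the full catalogue. Distances run from peak edges to starts of every GENCODE transcript; place is that of the peak middle. Sequence came from the mm9 genome given; leading 30-mers were taken in turn while each added at least 15 members. Python 3.11.15 with pandas 2.3.3, numpy 2.4.6, SciPy 1.17.1 and numba 0.67.0 was used; code was tested on simulated data. Named regions were the strongest in each class of place or mark, the 3 largest groups, genes with most members and every listed imprinted, hepatocyte or silencing gene with a member, beside those said to be chosen later. Alternatives changed distance, annotation, overlap, score limits and member subsets. Chromosomes X and Y were left out by the rule. No test was made, since each condition has 1 library.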

Additional observations from a re-analysis of the deposited data

Results flagged for a closer look

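Peaks on chromosome X are outside the rule for members and were counted once, since a signal was present in data no comparison uses. Of 191 distal KAP1 peaks on chromosome X, 105 were in the list shared with SETDB1 (55.0%, 47.6 to 62.2). These 105 had a median score of 119 and a highest score of 1077. MEF H3K9me3 was at 6 of them in WT and 0 in KO, and H3K27ac at 0 in WT and 5 in KO.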

How the results depend on the processing

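Of 59 alternative values 22 stayed within the counting interval of the main value or, for the number of members, within 1.5 times of it, and 37 moved beyond; the causes were not tested. In every alternative H3K9me3 was at more members in WT than in KO, and H3K27ac at more in KO than in WT. At more than 5 kb from starts, the median score was 166, the share of distal KAP1 peaks shared with SETDB1 27.5%, and H3K27ac 4.20% in WT and 6.79% in KO. With starts of protein-coding transcripts only, the median score was 180. Among the 50% of KAP1 peaks with the highest scores, the shared part was 32.0%. Among the 50% of members with the highest scores, WT H3K9me3 was at 28.0%, and H3K27ac at 9.10% in WT and 13.1% in KO. Place by any shared base put 6.69% in exons. With gaps of 50 and 500 kb, 39.3% and 72.8% had another member close by. With overlap of at least 50% of the shorter interval, WT H3K9me3 was at 17.3% and H3K27ac at 4.65% in WT and 6.99% in KO. With peaks within 1 kb, H3K9me3 was at 28.3% and 2.00%, and H3K27ac at 8.44% and 11.3%. With MEF scores of at least 80, H3K9me3 was at 13.6% in WT and 0.554% in KO. With equal numbers of peaks, WT H3K9me3 was at 9.63%. In the middle 300 bp TGCCGC was in 56.1%.

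Of the 59 alternatives, 15 were chosen after seeing the data. Without the 3 leading 30-mers the median score was 358, the shared part 14.7%, members between genes 64.3%, in exons 10.6%, with another within 100 kb 30.9% (in a list shorter by construction), with WT H3K9me3 28.5%, KO H3K9me3 1.71%, WT H3K27ac 11.9%, KO H3K27ac 16.9% and with TGCCGC 45.3%. With at least 50% unique 30-mers the shared part was 10.8%, WT H3K9me3 23.1% and H3K27ac 17.7% in WT and 23.6% in KO.

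No paired analysis was possible because the replicate numbers in the labels belong to samples without files used here, and each condition has 1 library. The share of soft-masked bases was not run, since the genome given has no lower-case letters. Depth is not given, so an unmarked member and an undetected mark cannot be told apart. Differences between genotypes and between libraries cannot be told apart either. Peak positions in identical copies rest on read placement that is not stated.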
